A study of Rattus norvegicus with 12 samples.

Results

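Gene expression was compared between preadipocytes from the epididymal fat of old and young rats. The comparison used 6 of the 12 arrays of the study: 3 arrays of cells from rats aged 30 months and 3 arrays of cells from rats aged 3 months, each from a separate animal. The arrays were chosen by their titles, which give the depot, the age and a replicate number. All rats were male Brown Norway rats reared behind a barrier and free of specific pathogens, and no genetic change or drug was part of the design. The other 6 arrays hold perirenal preadipocytes of the same rats and served only as a comparison. The stromal cells were freed from the minced fat pad with collagenase, plated, lifted with trypsin, replated and grown to confluence in medium with fetal serum, so the values describe replated cultures of 1 strain and sex and not the cells as they lie in the tissue. RNA from each culture was labelled from an oligo-dT primer and hybridised to 1 array, and the deposited signal of each probe set is proportional to brightness on a linear scale. The 3 arrays per age limit the precision of every value, and each p-value rests on the spread between these few arrays. In that spread, differences between rats, cultures, labelling and RNA completeness cannot be told apart.

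Preadipocytes are the committed precursors of fat cells. In adipogenesis the early factors Cebpb and Cebpd switch on Pparg and Cebpa, which then drive the genes of lipid storage, while Wnt, TGF-beta and inflammatory signals hold the cells back. Insulin-like growth factor 1 (Igf1) is made by stromal cells, acts through its receptor on division and differentiation, and is held by a family of binding proteins. The epididymal depot lies along the testis and epididymis and is covered by mesothelium, so a stromal preparation of it can also hold mesothelial, smooth muscle, endothelial and immune cells.

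The 6 cultures carried the markers of preadipocytes and fibroblasts at high signal. Col1a1 (type I collagen) lay between 28463 and 40124, Vim (vimentin) between 21792 and 24600, Dcn (decorin) between 17411 and 20036 and Pdgfra, a receptor that marks fat cell precursors, between 4197 and 7812. Of 17 measured preadipocyte and fibroblast markers, 7 were higher and 10 lower in old cells, with a median log2 difference of -0.02. Fap, a fibroblast surface protease, was the member with the smallest p, at 609, 682 and 540 on the young and 384, 343 and 394 on the old arrays (log2 difference -0.70 ± 0.18 SE, adjusted p = 0.507). Nt5e, the CD73 ectonucleotidase, differed by 0.38 ± 0.21, and its groups overlapped. The fat cell protein Plin1 was at or under 35.7 on every array, below the level of 56.3 under which probe sets were left out, and Fabp4 was 24.4 to 117. Lpl (lipoprotein lipase), by contrast, lay between 6433 and 8638.

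Array quality varied widely among the epididymal arrays, within both ages. The ratio of 3' to 5' signal of beta-actin, which grows as labelled RNA becomes less complete, was 10.3, 5.25 and 38.2 on young arrays 1 to 3 and 7.004, 54.97 and 13.9 on old arrays 1 to 3. These ranges overlapped (exact two-sided permutation test on the log2 ratio, p = 0.7, where 3 arrays against 3 cannot go below 0.1). On the 6 perirenal arrays the ratio was 0.902 to 1.11. The Gapdh ratio was 2.13, 1.97 and 4.99 on young and 1.85, 6.94 and 3.98 on old arrays (exact permutation p = 0.7), and the median signal was 154 to 176 on young and 153 to 163 on old arrays. Taken over the tested probe sets, as a description, log2 signals of arrays of 1 age correlated at 0.942 to 0.953 (young) and 0.950 to 0.959 (old), and arrays of different age at 0.943 to 0.964. The first principal component of the 6 arrays, with 27.6% of the variance, mixed the ages, whereas on the second, with 22.6%, all old arrays scored above all young ones. Its scores were 7.74, 31.9 and 10.1 for old arrays 1 to 3 and -3.14, -33.6 and -13.1 for young arrays 1 to 3. Full separation of 3 arrays from 3 cannot go below an exact permutation p of 0.1, so these scores are only a description.

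**Figure D1:**
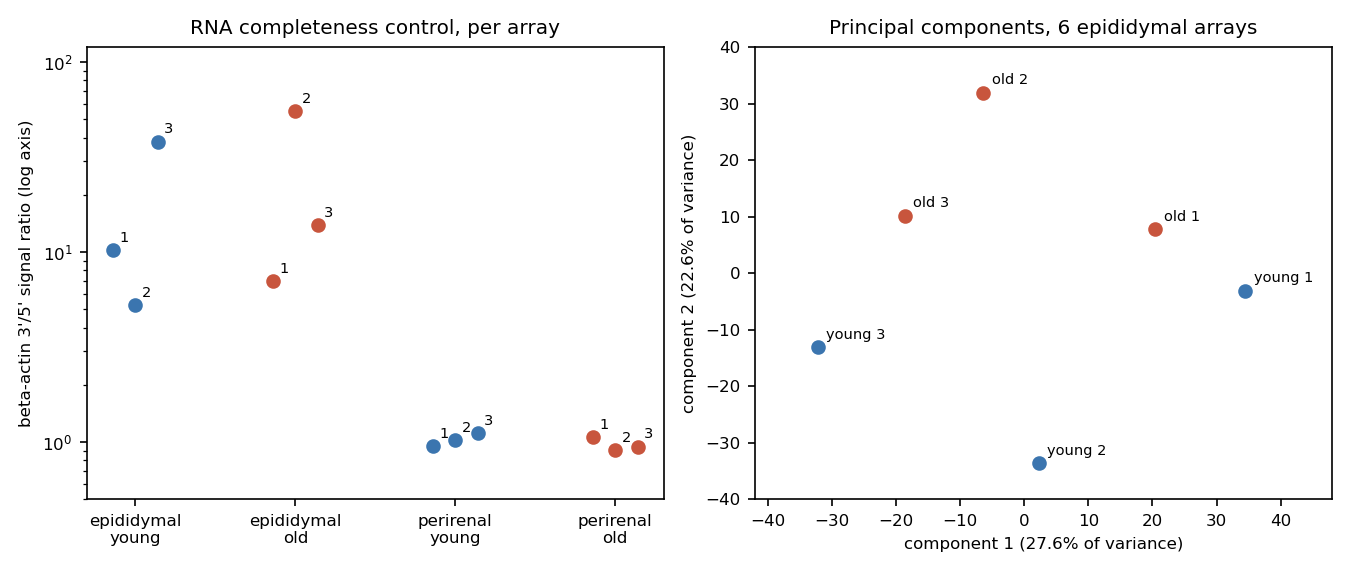
Left, the beta-actin 3'/5' signal ratio of each array on a log axis, by depot and age, with blue for young, red for old and digits for the replicate number. The epididymal arrays span 5.25 to 54.97 with both ages mixed, and the perirenal arrays lie between 0.902 and 1.11. Right, scores of the 6 epididymal arrays on the first and second principal components, where the old arrays lie above the young ones on the second component.

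No gene passed the test between old and young epididymal preadipocytes. Of 11106 probe sets tested with limma, 0 (0%) had an adjusted p under 0.05, and the lowest adjusted p was 0.249. At an unadjusted p under 0.05 there were 597 probe sets (5.38% of those tested). That count was 927 with the spread of all 12 arrays and 937 with a block for the replicate number. Adjustment for the actin ratio, quantile normalisation, array weights, other filters, an added offset, no intensity trend and a block for the replicate number also called 0. Errors beside log2 differences (old minus young) are standard errors from limma over 3 arrays per age. The median standard error was 0.23 on the log2 scale, and the median 95% interval reached 0.51 to each side, which is 1.42-fold. Differences of that size or smaller were thus within the error of a typical probe set. Only 292 probe sets (2.63%) differed by more than 2-fold.

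Some probe sets passed when the spread was shared over all 12 arrays or when young array 1 was left out. With the spread shared over all 12 arrays, 8 probe sets (0.072%) passed, 2 higher and 6 lower in old cells, and in all 8 the old and young signals did not overlap. The named ones were Stmn2 and Cd55 (higher) and Pnisr, Sh3gl1, Resf1 and B3gat3 (lower), with adjusted p of 0.0379 to 0.0464. The perirenal arrays were tighter, with a median residual SD of 0.212 against 0.278, so the shared spread is smaller than the epididymal one. Without young array 1, 8 probe sets passed as well, but 0 of them were among the first 8. They were Smoc1 and Ltbp1 (higher) and Postn, Col5a3, Nrep, Krt8, Tgfbi and Plau (lower), with adjusted p of 0.000691 to 0.0475. On Postn, which codes for the matrix protein periostin, young array 1 had 397 while young arrays 2 and 3 had 3946 and 3330 and the old arrays 588, 728 and 791. With all 6 arrays its log2 difference was -1.32 ± 0.68, and without young array 1 the difference itself became -2.38. Leaving out instead the 2 arrays with the highest actin ratio, old 2 and young 3, called 0 probe sets, with 591 at an unadjusted p under 0.05.

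Counted by gene, with 1 probe set each, lower values were more frequent than higher ones among the smallest p. Of 8002 genes, 142 (1.77%) were higher and 276 (3.45%) lower in old cells at an unadjusted p under 0.05. All 3 old arrays lay above all 3 young ones in 354 genes (4.42%) and below them in 487 (6.09%). Over all genes 47.4% were higher in old cells and the median difference was -0.02. Where a gene had several tested probe sets, which was so for 1139 genes, all of them separated the ages upward in 10 genes and downward in 4. Stmn2, Cd55 and Igf2r were among the former, and Igf1 and Dpt among the latter.

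Among genes that were higher in old cells, Stmn2 had the largest difference of those named by smallest p. It encodes stathmin-2, a microtubule-binding protein known from growing neurons. Its signal was 56.0, 81.1 and 89.1 in young and 366, 288 and 933 in old cells, a 6.24-fold difference of means (log2 2.64 ± 0.40, adjusted p = 0.249). Every old array lay above every young one. A second Stmn2 probe set had 33.3, 28.9 and 21.7 in young and 116, 66.8 and 283 in old cells (2.24 ± 0.55), with the young signals below the filter level.

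Cd55, Smoc1, Ltbp1 and Ccl11 were among the higher genes. Cd55, the decay-accelerating factor that shields cells from complement, had 621, 604 and 643 in young and 1145, 2013 and 1346 in old cells, 2.34-fold higher (1.23 ± 0.21, adjusted p = 0.249). Its second probe set differed by 0.97 ± 0.24, also without overlap. Smoc1, a secreted calcium-binding matrix protein, had 350, 172 and 178 in young and 574, 660 and 510 in old cells (1.39 ± 0.28, adjusted p = 0.357). Young array 1 was the closest to the old values, as it was for Ltbp1, a binding protein that stores latent TGF-beta in the matrix. Ltbp1 had 1135, 639 and 610 in young and 1652, 1561 and 1469 in old cells (1.03 ± 0.23). Ccl11 (eotaxin, which attracts eosinophils) had 139, 252 and 361 in young and 510, 488 and 982 in old cells (1.42 ± 0.36, adjusted p = 0.514).

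The other genes of the 12 with the smallest p on the higher side encode proteins of transport, signalling and growth. Rab14 (a GTPase of endosomal traffic) differed by 0.75 ± 0.17, Dync1li1 (a light intermediate chain of dynein) by 0.72 ± 0.18, Atp1b1 (the beta subunit of the sodium pump) by 0.72 ± 0.19 and Klhl13 (an adaptor of a ubiquitin ligase) by 0.61 ± 0.16. Pa2g4, a regulator of growth, had 930, 835 and 925 in young and 1670, 1242 and 2137 in old cells (0.88 ± 0.20). Pde10a, which breaks down cyclic nucleotides, differed by 0.97 ± 0.25. None of these 6 overlapped between ages. Ctnnb1 (beta-catenin) differed by 0.75 ± 0.18 on 1 probe set, but the others gave -0.71 ± 0.36 and 0.13 ± 0.15. Second probe sets also gave smaller or opposite values for Rab14 (0.39 and 0.07), Atp1b1 (0.55 ± 0.29, with overlap) and Pde10a (-0.23).

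Among lower genes, Igf1 was among those with the smallest p on both of its probe sets. The first had 5605, 5290 and 7092 in young and 3339, 2781 and 2565 in old cells, 2.07-fold lower in old (-1.05 ± 0.16, adjusted p = 0.249). The brighter one had 9518, 9176 and 11965 in young and 6867, 5725 and 6009 in old cells (-0.72 ± 0.15, adjusted p = 0.368). On neither probe set did an old array reach the lowest young one.

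Pnisr, Pabpn1 and Resf1 were among the 12 lower genes. Pnisr, a serine- and arginine-rich nuclear protein, had 335, 371 and 312 in young and 156, 146 and 125 in old cells, 2.38-fold lower (-1.25 ± 0.20, adjusted p = 0.249). Pabpn1, the nuclear poly(A)-binding protein, had 585, 770 and 735 in young and 339, 192 and 312 in old cells (-1.34 ± 0.24). Resf1, a retroelement silencing factor, had 599, 596 and 644 in young and 328, 248 and 339 in old cells (-1.02 ± 0.19). In all 3 genes the ages were clearly apart, with the highest old signal well under the lowest young one.

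The other 8 include genes of the matrix and the cytoskeleton. Ogn (osteoglycin) and Dpt (dermatopontin) are small proteins of the collagen matrix. Ogn had 568, 524 and 528 in young and 299, 219 and 262 in old cells (-1.06 ± 0.19), while its other probe sets gave -0.76, -0.63 and 0.08. Dpt had 1409, 1550 and 1447 in young and 778, 945 and 562 in old cells (-0.98 ± 0.20), and its second probe set gave -0.92 ± 0.24. B3gat3, the enzyme that completes the sugar linker of proteoglycans, had 375, 409 and 396 in young and 218, 154 and 135 in old cells (-1.25 ± 0.22). Tgfbi, a secreted adhesion protein induced by TGF-beta, had 1201, 2966 and 1868 in young and 865, 432 and 665 in old cells (-1.58 ± 0.33, adjusted p = 0.371). The contractile proteins Actg2 (smooth muscle gamma-actin, -0.98 ± 0.19) and Myh9 (non-muscle myosin heavy chain, -0.72 ± 0.14), the endocytic Sh3gl1 (endophilin A2, -0.90 ± 0.17) and the scaffold Nherf1 (-1.20 ± 0.24) completed the 12, each without overlap.

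**Figure D2:**
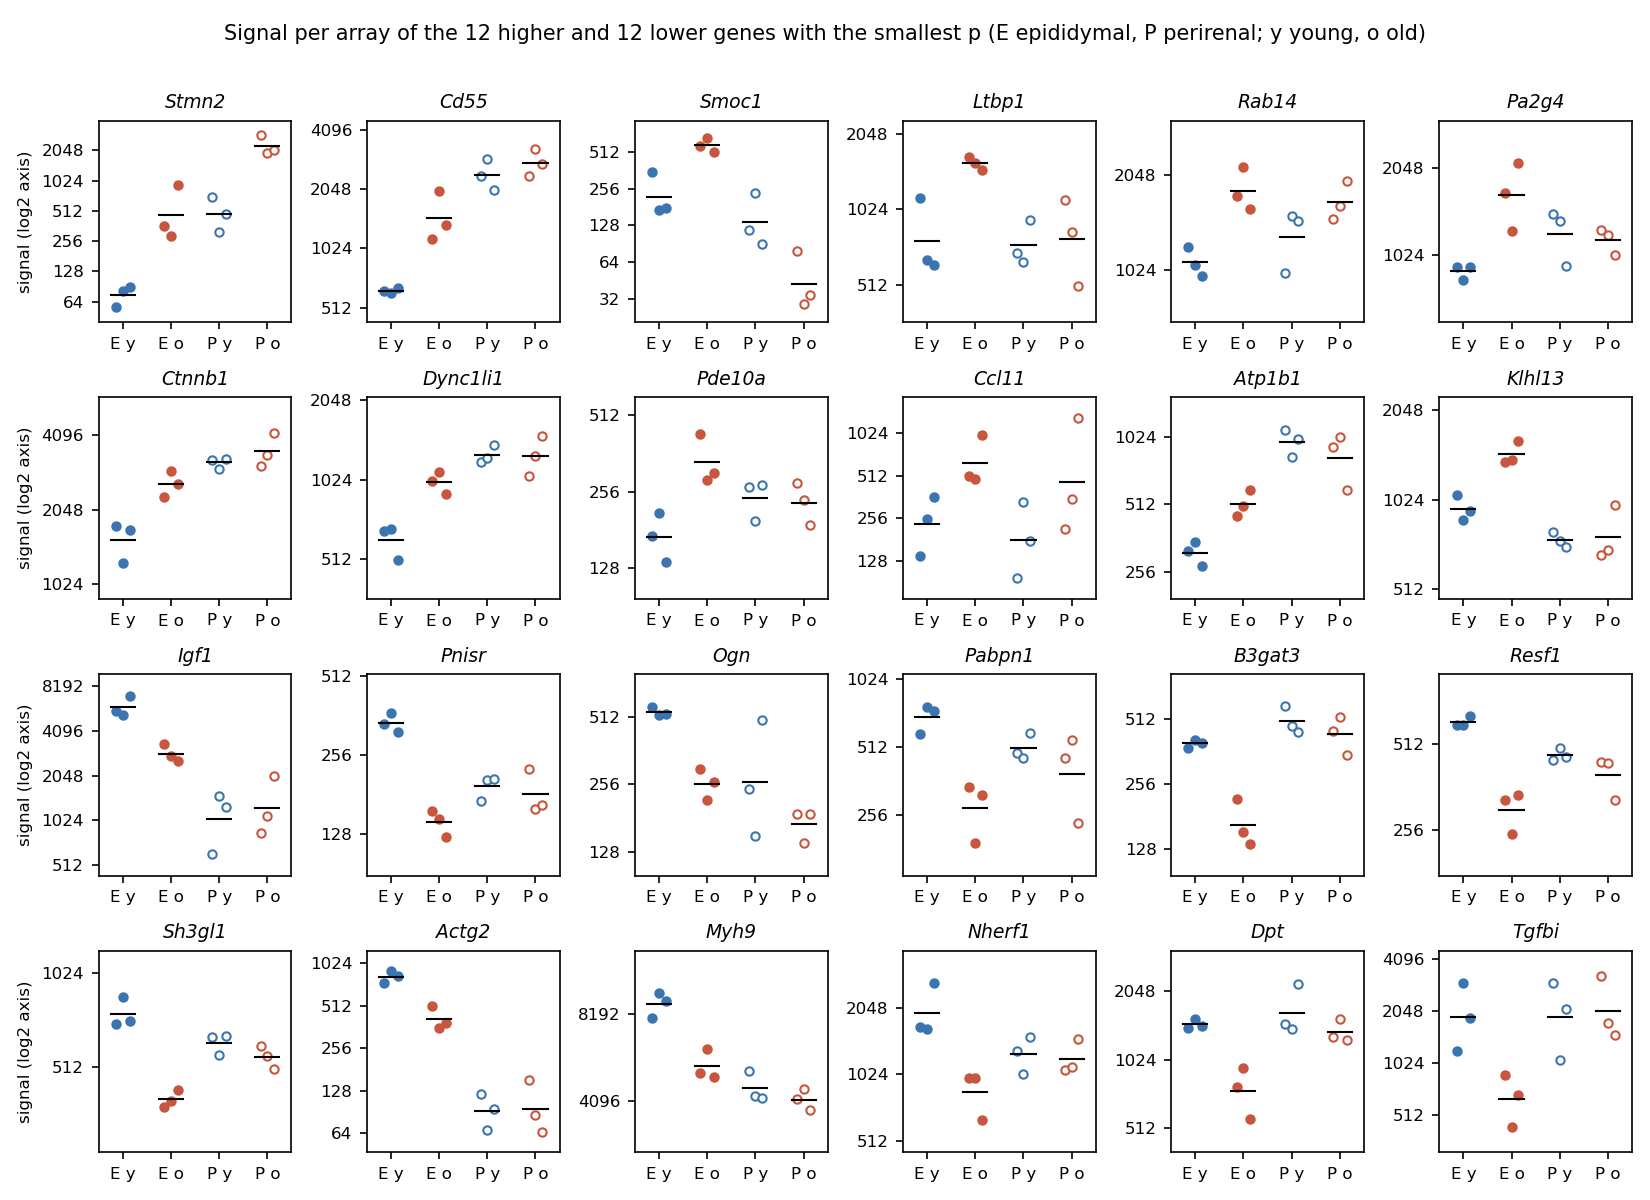
Signal of each array on a log2 axis for the 12 genes with the smallest p that were higher (upper panels) and the 12 that were lower (lower panels) in old epididymal cells. Blue is young, red is old, filled points are epididymal (E) and open points perirenal (P), and bars are geometric means. In each of the 24 genes the filled red points do not overlap the filled blue ones, which their choice by smallest p favours. No adjusted p is under 0.249.

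Of the insulin-like growth factor axis, 14 of 18 listed genes were measured. At an unadjusted p under 0.05, 5 were lower in old cells and 1 was higher, beside 3.45% and 1.77% of all genes. The median difference was -0.38 against -0.02 over all genes, the lowest of the 28 lists. The summed signal of the 17 genes on the array was 26907 to 29937 in young and 21706 to 23652 in old cells, and these ranges did not overlap. Most of that gap lay in Igf1 and Igfbp7. Leaving out the 2 arrays with the highest actin ratio gave a median of -0.18, and leaving out 1 array gave -0.52 to -0.19. The binding protein Igfbp7 had 7061, 7439 and 6825 in young and 5637, 4892 and 4753 in old cells (-0.48 ± 0.13, adjusted p = 0.585). Igfbp4 had 742, 1278 and 1202 in young and 517, 685 and 568 in old cells (-0.83 ± 0.23). Both were without overlap. Igfbp2 differed by -1.61 ± 0.70, with an old mean below the filter level and overlapping groups, and Igfbp3 by -0.53 ± 0.32 on 1 probe set and 0.04 ± 0.35 on another.

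The receptors of the axis did not move one way. Ghr, the growth hormone receptor through which Igf1 is induced, had 145, 238 and 276 in young and 125, 84.1 and 119 in old cells (-0.98 ± 0.30, adjusted p = 0.791). Igf2r, which clears insulin-like growth factor 2 and carries enzymes to the lysosome, had 2420, 2248 and 2236 in young and 3427, 2955 and 4034 in old cells (0.58 ± 0.15, adjusted p = 0.554). Its second probe set gave 0.52 ± 0.24, also without overlap. The receptor Igf1r had 460, 370 and 368 in young and 416, 553 and 442 in old cells (0.23 ± 0.19), and these overlapped.

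**Figure D3:**
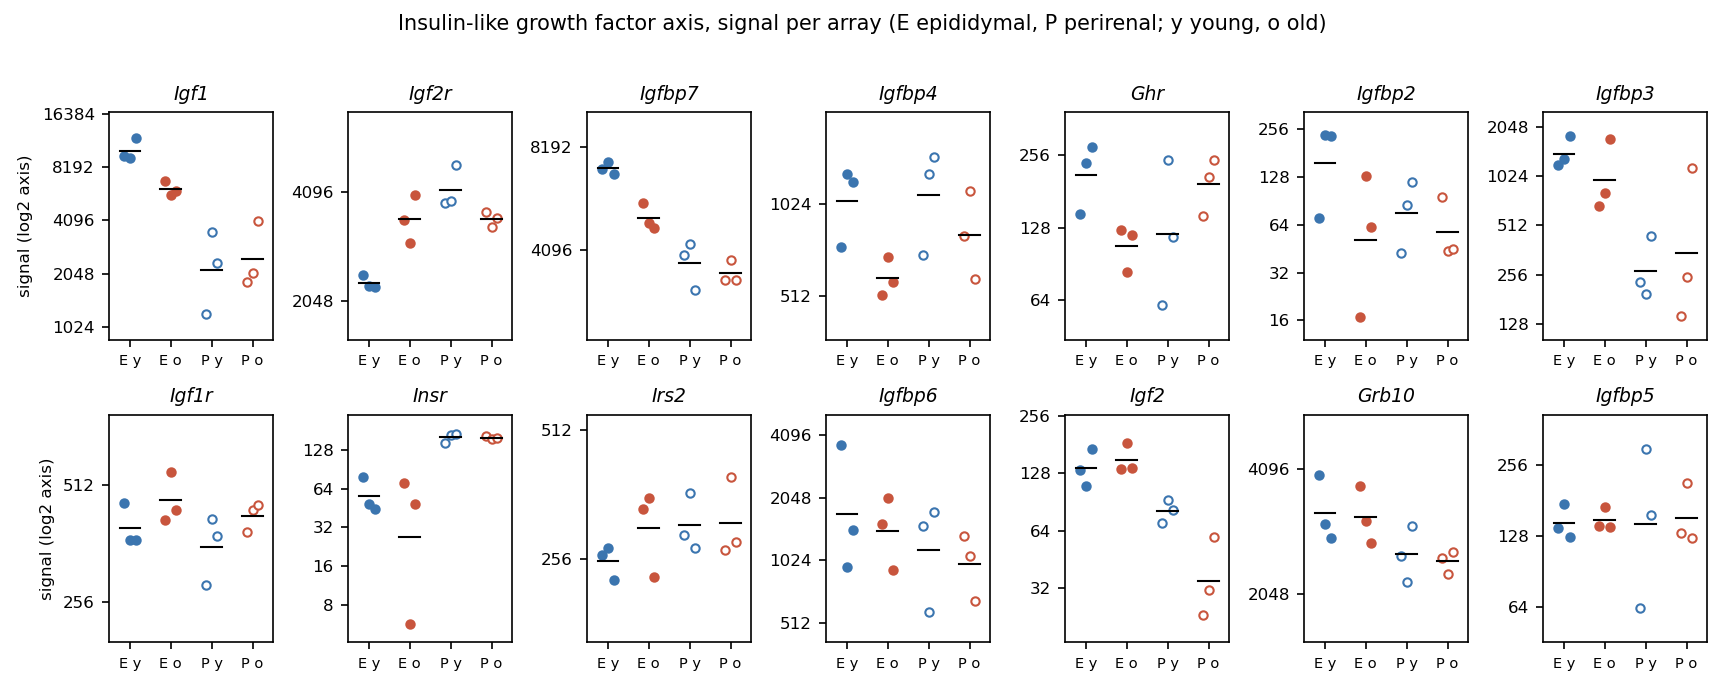
Signal of each array on a log2 axis for the 14 measured genes of the insulin-like growth factor axis, ordered by p, with 1 probe set per gene (the brightest). Blue is young, red is old, filled points are epididymal (E), open points perirenal (P), and bars are geometric means. Filled red points lie below the filled blue ones in Igf1, Igfbp7, Igfbp4 and Ghr and above them in Igf2r.

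Of 23 measured adipogenic regulators, 6 were higher and 17 lower in old cells, where 47.4% of all genes were higher. At an unadjusted p under 0.05, 4 were lower and 0 higher, beside 3.45% of all genes lower, and the median was -0.14 (-0.24 to -0.06 when 1 array was left out). Cebpb had 3246, 3144 and 3904 in young and 2690, 2386 and 2854 in old cells (-0.37 ± 0.15, adjusted p = 0.895), without overlap. Klf15, a factor that supports fat cell differentiation, had 173, 168 and 186 in young and 126, 108 and 87.1 in old cells (-0.73 ± 0.25). Rxra, the partner of Pparg on DNA, had 57.8, 89.5 and 69.6 in young and 22.0, 34.0 and 14.6 in old cells, the latter below the filter level. It is among the 4 lower genes, but it passed the filter over all 12 arrays only through perirenal signals of 133 to 163. Zfp423, a factor of preadipocyte commitment, gave -0.66 ± 0.26 on 1 probe set and 0.21 ± 0.29 on another.

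Pparg, the main switch of adipogenesis, had 210, 170 and 133 in young and 154, 191 and 110 in old cells (-0.19 ± 0.28), and its groups overlapped. Of 29 measured genes of adipocytes and lipid storage, 13 were higher and 16 lower, with a median of -0.02. Plin2, a lipid droplet coat protein found in many cells, had 1720, 1916 and 1909 in young and 1501, 1365 and 1323 in old cells (-0.40 ± 0.15). Cfd (adipsin) differed by -0.78 ± 0.34 and Angptl4, an inhibitor of lipoprotein lipase, by -0.63 ± 0.27. Fabp4, the fatty acid binding protein of fat cells, had 48.2, 117 and 54.3 in young and 24.4, 52.1 and 27.3 in old cells, with the old mean below the filter level. Of 21 inhibitors of adipogenesis 10 were higher and 11 lower, with a median of -0.03. Id2, which blocks helix-loop-helix factors, had 261, 178 and 218 in young and 314, 366 and 301 in old cells (0.59 ± 0.21), with a second probe set at -0.15 ± 0.38, and Inhba differed by 0.47 ± 0.25. Celf1, an RNA-binding protein, differed by 0.17 ± 0.18 on 1 probe set, while another had 389, 301 and 375 in young and 700, 393 and 625 in old cells (0.66 ± 0.24). Ddit3, a stress-induced factor that blocks Cebpb, differed by -0.25 ± 0.35. Cebpa and Dlk1 were below the filter and not tested.

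Extracellular matrix genes differed in both directions. Of 64 measured, 3 were higher and 7 lower at an unadjusted p under 0.05, beside 1.77% and 3.45% of all genes. The list median was -0.04. The fibrillar collagens Col1a1 (-0.17 ± 0.13) and Col3a1 (-0.08 ± 0.13) overlapped between ages. Tnc (tenascin C) had 14909, 14721 and 10511 in young and 15760, 19619 and 19240 in old cells (0.46 ± 0.16), and Lamc1 (a laminin chain) differed by 0.36 ± 0.13. Eln (elastin) had 426, 368 and 346 in young and 268, 292 and 279 in old cells (-0.44 ± 0.18). Serpinh1, the collagen chaperone, differed by -0.35 ± 0.13, and Mgp, which restrains calcification, by -0.32 ± 0.13. Col5a3, a minor collagen chain, had 292, 851 and 966 in young and 291, 287 and 198 in old cells (-1.28 ± 0.39), so that young array 1 sat with the old ones.

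Young array 1 also lay close to the old arrays in Plau, Serpine2 and Mmp3, but it was the lowest young array in only 8 of the 23 measured proteases and inhibitors. Plau, the urokinase that activates plasminogen, had 212, 624 and 981 in young and 206, 264 and 247 in old cells (-1.09 ± 0.45). Serpine2 (protease nexin-1), one of its inhibitors, had 99.1, 409 and 434 in young and 65.9, 161 and 107 in old cells (-1.32 ± 0.53). Mmp3 (stromelysin-1) had 54.5, 756 and 778 in young and 93.0, 221 and 521 in old cells (-0.53 ± 0.92). Over the 23 measured proteases and inhibitors, 2 were lower and 0 higher at an unadjusted p under 0.05. The shares over all genes were 3.45% and 1.77%, and the list median was 0.05. Nrep had 575, 1149 and 2277 in young and 340, 452 and 349 in old cells (-1.60 ± 0.40, adjusted p = 0.507), without overlap. Of 40 genes of TGF-beta and BMP signalling, 4 were higher and 1 lower at that level, beside 1.77% and 3.45% of all genes. The list median was 0.02.

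Cytokines and chemokines were higher in single members rather than as a group. Of 22 measured, 2 were higher and 1 lower at an unadjusted p under 0.05, beside 1.77% and 3.45% of all genes. The list median was 0.01. Ccl2, which attracts monocytes, had 3396, 5604 and 4324 in young and 5247, 8382 and 9347 in old cells (0.77 ± 0.24, adjusted p = 0.791), with a small overlap. Il6 had 711, 804 and 2317 in young and 2187, 951 and 3086 in old cells (0.76 ± 0.48), and its ranges overlapped. Cxcl9, a chemokine induced by interferon gamma, had 130, 110 and 106 in young and 75, 72.3 and 69.0 in old cells (-0.67 ± 0.29). Tnf and Ptgs2 were below the filter and not tested.

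Of 29 measured receptors and genes of the NF-kB pathway, 11 were higher and 18 lower, where 47.4% of all genes were higher. At an unadjusted p under 0.05, 2 were lower, beside 3.45% of all genes, and the median was -0.13, which became -0.04 with array weights and -0.000859 without young array 1. Traf2, an adaptor of the TNF receptors, had 186, 257 and 162 in young and 120, 153 and 111 in old cells (-0.64 ± 0.26). Vcam1, an adhesion protein that binds leukocytes, had 4117, 2834 and 3964 in young and 2915, 2274 and 1821 in old cells (-0.65 ± 0.21, adjusted p = 0.791). The receptor Tnfrsf1a differed by -0.28 ± 0.15 and Il6r by -0.81 ± 0.41, both without overlap.

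Of 38 interferon response and antigen presentation genes, 12 were higher and 26 lower, where 47.4% of all genes were higher. At an unadjusted p under 0.05, 3 were lower and 0 higher, beside 3.45% of all genes lower, and the median was -0.14. Ifi27 had 7372, 7370 and 6949 in young and 5472, 6512 and 5525 in old cells (-0.31 ± 0.13). Psmb10, a subunit of the immunoproteasome, differed by -0.47 ± 0.21, and Bst2 (tetherin) by -0.48 ± 0.23. Ciita, the switch of class II antigen genes, had 132, 95.7 and 86.1 in young and 88.9, 50.2 and 26.5 in old cells, with the old mean below the filter level. At the same level, of 13 complement genes 1 was higher (Cd55) and 2 lower, beside 1.77% and 3.45% of all genes. Among the lower ones was Cfi, a protease that inactivates complement (-0.83 ± 0.36).

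Of 59 measured subunits of oxidative phosphorylation 17 were higher and 42 lower, where 47.4% of all genes were higher. At an unadjusted p under 0.05, 4 were lower, beside 3.45% of all genes. The old arrays lay below all young ones in 10 subunits and above them in 1, beside 6.09% and 4.42% of all genes. The median was -0.10. Cox5b, a subunit of cytochrome c oxidase, had 4261, 5123 and 4522 in young and 2814, 3029 and 3309 in old cells (-0.60 ± 0.14, adjusted p = 0.507). Ndufa5 of complex I differed by -0.52 ± 0.19, and Uqcrq of complex III and Cox8a by -0.35 ± 0.14 each, all without overlap.

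Of 41 genes of oxidative stress and detoxification, the median was -0.06. At an unadjusted p under 0.05, 1 gene was lower, beside 3.45% of all genes. That gene, Mgst1 (a membrane-bound glutathione transferase), had 1520, 2137 and 5176 in young and 1192, 1010 and 1139 in old cells (-1.21 ± 0.36, adjusted p = 0.709). Catalase (Cat) differed by -0.40 ± 0.18. Of 43 genes of heat shock and the unfolded protein response, 1 was higher at that level, beside 1.77% of all genes. The list median was 0.07. Hspb1, a small heat shock protein, had 5228, 3967 and 3528 in young and 5428, 6542 and 4909 in old cells (0.42 ± 0.18), and Hspa9 differed by -0.45 ± 0.25 on 1 probe set and by 0.24 ± 0.46 and 0.27 ± 0.58 on the others. Of 25 genes of cholesterol and fatty acid synthesis 18 were higher, where 47.4% of all genes were higher. At an unadjusted p under 0.05, 1 was higher, beside 1.77% of all genes. The median of 0.17 was the highest of the 28 lists. Young array 1 was the lowest young array in 22 of the 25, and without it the median was -0.05. Cyp51, a lanosterol demethylase, differed by 0.60 ± 0.25 and Abcg1, a cholesterol exporter, by -0.64 ± 0.33, both with overlap, while a second Abcg1 probe set gave 1.21 ± 1.16.

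Cell cycle genes gave mixed values. Of 24 measured genes of arrest and p53 targets, 1 was higher and 1 lower at an unadjusted p under 0.05. The shares over all genes were 1.77% and 3.45%, and the list median was -0.03. Ccng1 (cyclin G1, a p53 target) had 1700, 1426 and 1280 in young and 2271, 1953 and 2638 in old cells (0.64 ± 0.17, adjusted p = 0.585). Cdkn2a, whose product p16 marks senescent cells, had 97.4, 64.0 and 88.4 in young and 199.9, 112 and 101 in old cells (0.68 ± 0.35, adjusted p = 0.895). Its groups did not overlap, by a narrow margin. Mdm2, which degrades p53, differed by 0.27 ± 0.17. Cdkn1a (p21) had 446, 379 and 851 in young and 633, 557 and 1282 in old cells (0.55 ± 0.36), with overlap, and Cdkn2b (p15) was near or below the filter level on most arrays. Of 40 proliferation genes 30 were higher, where 47.4% of all genes were higher, and the median was 0.10. At an unadjusted p under 0.05, 0 were higher, beside 1.77% of all genes. Young array 1 was the lowest young array in 39 of the 40, and without it the median was -0.21. The median member was 0.68 lower on young array 1 than on the average array, whereas young arrays 2 and 3 were 0.37 and 0.31 higher. Mki67 had 492, 847 and 792 in young and 350, 440 and 619 in old cells (-0.60 ± 0.26), and Ube2c differed by 0.56 ± 0.28.

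The list medians of Wnt and Notch, growth factor and developmental patterning genes lay between -0.06 and 0.06. Of 26 Wnt and Notch genes 3 were lower at an unadjusted p under 0.05, beside 3.45% of all genes. The list median was -0.06. Sfrp2, a secreted modulator of Wnt, had 1149, 766 and 4282 in young and 605, 520 and 973 in old cells (-1.21 ± 0.52), and the receptor Fzd2 differed by -0.37 ± 0.15. Of 23 growth factors and receptors 2 were higher at that level, beside 1.77% of all genes, with a median of 0.06. Fgf7, a growth factor for epithelia, had 131, 52.0 and 35.4 in young and 227, 107 and 132 in old cells (1.24 ± 0.49), and Vegfc differed by 0.40 ± 0.17. Of 25 developmental patterning genes 1 was lower at that level (Sfrp2), beside 3.45% of all genes, and the median was -0.02. Msx1 had 130, 134 and 134 in young and 142, 251 and 194 in old cells (0.52 ± 0.26).

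**Figure D4:**
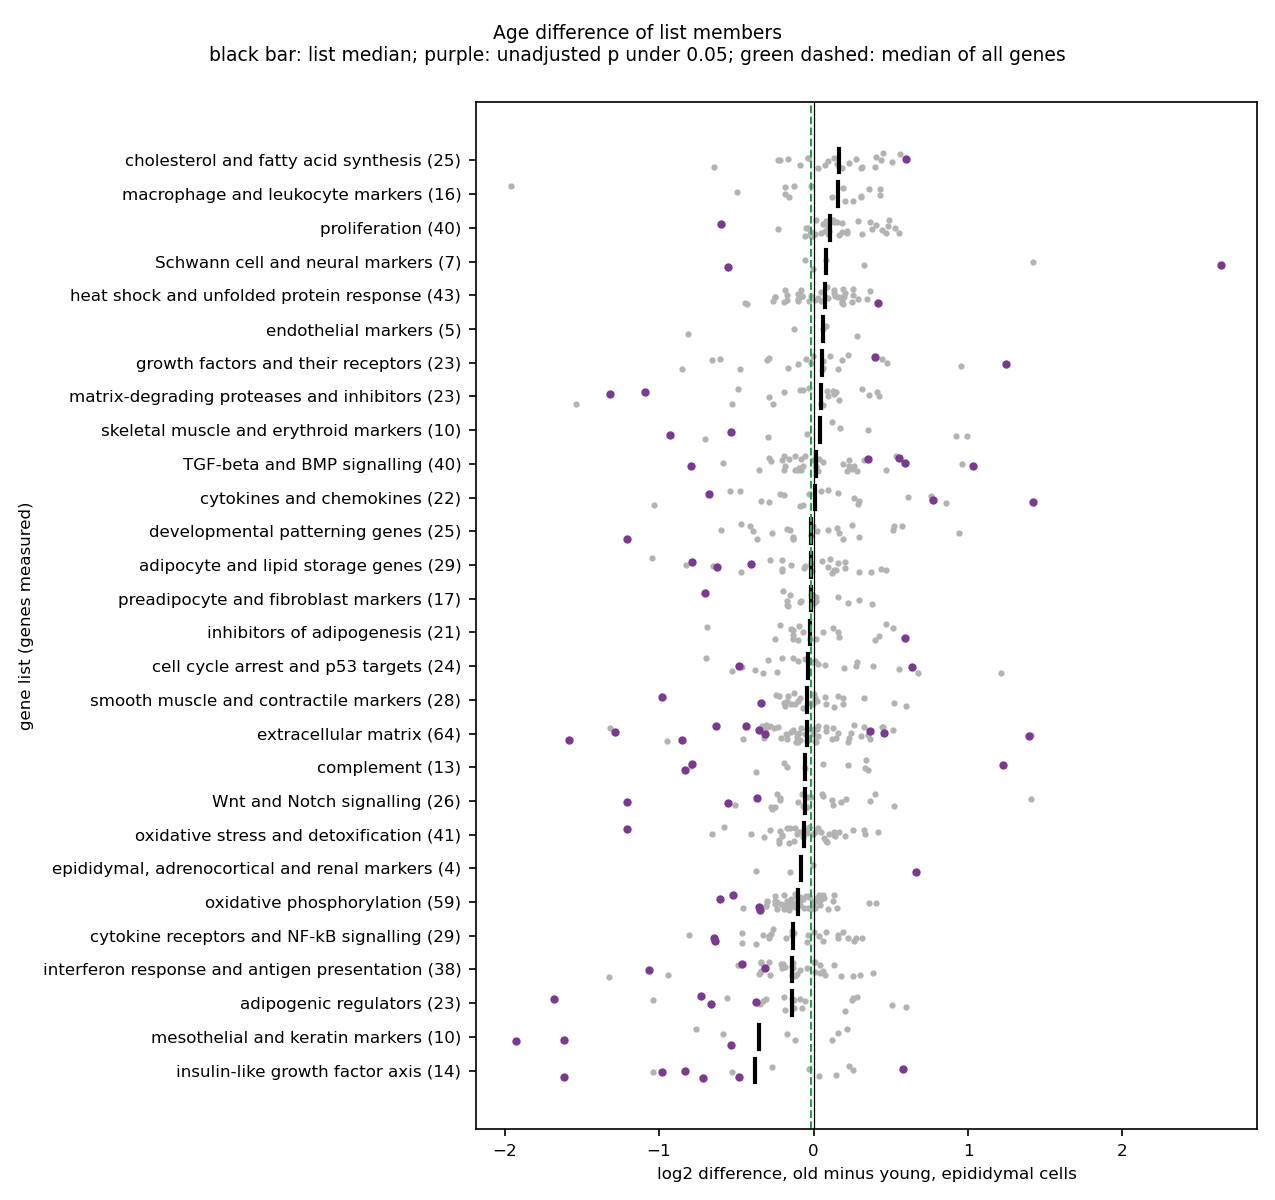
Log2 difference, old minus young, of every measured member (points) of the 28 gene lists in epididymal cells, ordered by the list median (black bar), with the number measured in parentheses. Purple points have an unadjusted p under 0.05 and the green dashed line is the median of all genes (-0.02). List medians run from -0.38 (insulin-like growth factor axis) to 0.17 (cholesterol and fatty acid synthesis).

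Markers of other cell types were set beside these values. In cultures, fewer cells of a type and less RNA per cell cannot be told apart. The leukocyte marker Ptprc (CD45) was 14.1 to 21.5 in young and 15.9 to 38.5 in old cells, below the filter level on every array, and Csf1r was 83.5 to 148 and 108 to 223. Of 16 measured macrophage and leukocyte markers, 0 had an unadjusted p under 0.05 and the median was 0.16. Over all genes 1.77% were higher and 3.45% lower at that level. Fcer1g differed by 0.43 ± 0.24, and Cpa3, a mast cell protease, had an old mean below the filter level. The summed signal of the 29 macrophage and leukocyte genes on the array was 2363 to 3517 in young and 2923 to 3862 in old cells. Leaving out the 2 arrays with the highest actin ratio turned this median to -0.38.

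The endothelial genes Pecam1, Vwf and Kdr were at or below the filter level on all or all but 1 of the arrays. The summed signal of the 17 endothelial genes on the array was 1648 to 1893 in young and 1758 to 2049 in old cells. The 5 of them that were measured had a median difference of 0.06, with Ramp2 at 0.28 ± 0.17 and Esam at -0.81 ± 0.62. Smooth muscle markers were high, with Acta2 at 7082 to 10597 in young and 7120 to 9284 in old cells. Their summed signal over 30 genes was 131210 to 169097 in young and 136923 to 158312 in old cells. At an unadjusted p under 0.05, 2 of 28 measured, Actg2 and Csrp1 (-0.34 ± 0.15), were lower, beside 3.45% of all genes.

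The keratins Krt8 and Krt18 had low signals in old cells and on young array 1, while Krt7 did not separate the ages. Krt8 had 79.6, 543 and 556 in young and 80.4, 122 and 44.9 in old cells (-1.92 ± 0.67, adjusted p = 0.871). Krt18, its partner in the filament, was not tested and had 76.6, 277 and 200.4 in young and 28.6, 65.1 and 64.7 in old cells. Krt7 had 360, 1195 and 594 in young and 495, 1076 and 751 in old cells (0.22 ± 0.40). Of 10 measured mesothelial and keratin markers 7 were lower, where 47.4% of all genes were higher, and the median was -0.35. At an unadjusted p under 0.05, 3 were lower, beside 3.45% of all genes. They were Krt8, Cdh3 and Igfbp2, which is also in the growth factor axis. The median was 0.001 with the lowest 50% of probe sets left out. Cdh3 (P-cadherin) differed by -0.53 ± 0.19. The mesothelial genes Msln (665 to 870 in young, 676 to 992 in old cells) and Wt1 (968 to 1119 and 774 to 1037) overlapped between ages, and the summed signal of the 18 genes was 6290 to 7977 in young and 5394 to 6830 in old cells. Postn, Col5a3, Plau and Krt8 shared the low value of young array 1, and the part of other cell types in those differences was not tested.

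Markers of neighbouring organs and nerve gave few values. Of 4 measured epididymal, adrenocortical and renal markers 1 was higher at an unadjusted p under 0.05, beside 1.77% of all genes. Star, which brings cholesterol into mitochondria for steroid synthesis, had 1079, 802 and 576 in young and 1168, 1278 and 1321 in old cells (0.66 ± 0.22), and its second probe set gave 0.33 ± 0.20 with overlap. Clu (clusterin) overlapped (-0.37 ± 0.39). Their summed signal over 19 genes was 1708 to 2949 in young and 2290 to 3230 in old cells. Of 7 Schwann cell and neural markers, Stmn2 was higher and Tubb3 (a neuronal tubulin) lower (-0.55 ± 0.19) at that level. The shares over all genes were 1.77% and 3.45%. A second Tubb3 probe set gave 0.13 ± 0.46. The Schwann marker S100b was 145 to 190 in young and 167 to 281 in old cells, and the summed signal of the 15 genes was 7421 to 8021 and 7604 to 7610. Of 10 skeletal muscle and erythroid markers 2 were lower at that level, Tnnt3 (-0.93 ± 0.34) and Acta1 (-0.54 ± 0.23), beside 3.45% of all genes. The sums over 23 genes were 1833 to 2131 and 1649 to 1950.

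The perirenal cells of the same rats gave the same comparison on arrays with nearly complete RNA. There, 1 probe set (0.009%) passed and 780 (7.02%) had an unadjusted p under 0.05. Across the 11106 probe sets, the age differences of the depots correlated at 0.0708, a description over probe sets whose arrays come from the same 6 rats. The difference between the depots' age effects was tested as an interaction, and 0 probe sets (0%) passed with limma. At an unadjusted p under 0.05 there were 612 (5.51%), the lowest adjusted p was 0.839, and without young array 1 only Plau passed (-2.13 ± 0.27, adjusted p = 0.0392). The interaction shares its spread with the tighter perirenal arrays. Its standard errors and p-values can thus be too small where the epididymal arrays vary more.

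Stmn2 and Ccl11 had differences of like size in both depots. In perirenal cells Stmn2 had 706, 318 and 476 in young and 2893, 1909 and 2073 in old rats (2.25 ± 0.28), and its second probe set was the one that passed there (2.76 ± 0.27, adjusted p = 0.0358). The interaction was 0.39 ± 0.55 (unadjusted p = 0.484 in limma). Ccl11 differed by 1.36 ± 0.63 in perirenal cells, close to its epididymal value, with overlapping groups. Cd55 differed there by only 0.20 ± 0.17 and Igf1 by 0.24 ± 0.38. In perirenal cells Igf1 had 608, 1496 and 1266 in young and 844, 1099 and 2030.2 in old rats. These levels are not compared with the epididymal ones, because depot and array controls cannot be told apart: the dap spike-in was 570 to 930.2 on epididymal and 4.5 to 40.6 on perirenal arrays. The interaction for Igf1 was -1.28 ± 0.46 and that for Cd55 1.03 ± 0.28, and neither passed (adjusted p = 0.854 and 0.846).

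Of the 10 genes named by the interaction, the 5 smallest p in each direction, 5 went in opposite directions with no overlap in either depot. Choice by a small interaction p favours such a pattern, so it is no further evidence, and none of the 10 passed. Smoc1, higher in old epididymal cells, had 117, 235 and 91.1 in young and 79.4, 29.0 and 34.3 in old perirenal cells (-1.66 ± 0.47, with the old mean below the filter level), an interaction of 3.05 ± 0.59 (adjusted p = 0.839). Igf2r had 3817, 3884 and 4882 in young and 3603, 3274 and 3471 in old perirenal cells (-0.27 ± 0.12). Pja2, a ubiquitin ligase, differed by 0.61 ± 0.18 in epididymal and -0.16 ± 0.12 in perirenal cells, but its other probe set gave -0.21 ± 0.17 in epididymal cells. Rab5c, a GTPase of early endosomes, differed by -0.35 ± 0.17 and 0.63 ± 0.18, and Rrp1, a ribosome assembly factor, by -0.34 ± 0.16 and 0.38 ± 0.12.

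In the other 5 the old and young arrays were apart in 1 depot and overlapped in the other. Pnisr differed by -0.10 ± 0.19 in perirenal cells, against -1.25 ± 0.20 in epididymal cells. Ppp2r1a, a scaffold of protein phosphatase 2A, differed by 0.44 ± 0.15 in epididymal and -0.24 ± 0.13 in perirenal cells. Il17re, a receptor of the interleukin-17 family, had 428, 226 and 277 in young and 259, 168 and 199 in old epididymal cells, and differed by 2.28 ± 0.44 in perirenal cells, where the young mean was below the filter level. Its other probe set gave 0.26 ± 0.33 in epididymal and 0.18 ± 0.16 in perirenal cells. The class I antigen gene RT1-T24-4 (-0.12 ± 0.19 and 1.32 ± 0.26) and Epb41l3, a membrane skeleton protein (0.07 ± 0.21 and -1.26 ± 0.26), had small epididymal and larger perirenal differences.

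**Figure D5:**
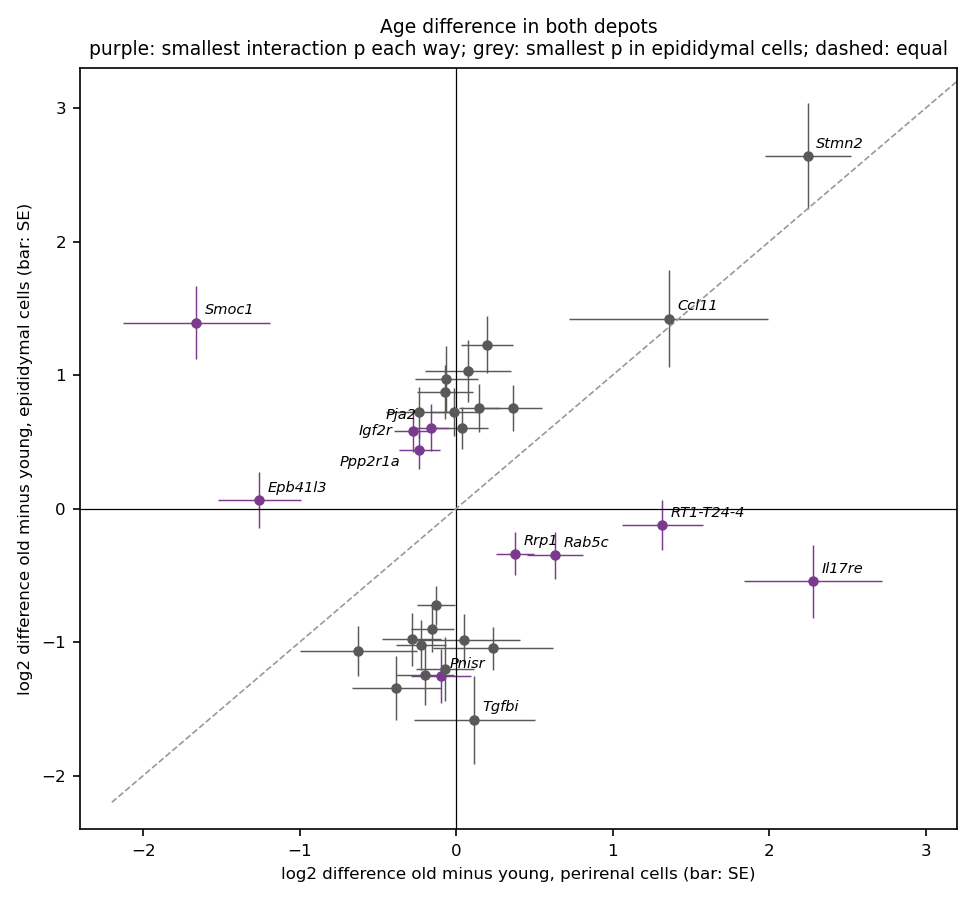
Log2 difference, old minus young, in epididymal cells (vertical) against perirenal cells (horizontal), with standard errors, for the 24 genes with the smallest epididymal p (grey) and the 5 genes with the smallest interaction p in each direction (purple, which covers grey for Smoc1 and Pnisr). The dashed line marks equal differences. Stmn2 and Ccl11 lie near it, Smoc1 lies far from it, and most grey points lie near 0 on the horizontal axis.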

How the data were processed

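The values deposited by the authors are linear intensity values, 1 for each probe set on each array. The submitters' processing notes name MAS5 with no version. The mean signal of each array, with 2% left out at each end, was 500.1 to 500.2, so this scaling was kept. Signals were taken to the log2 scale without an offset, after 2 signals of 0 were set to 0.1. Of 15923 probe sets, 57 controls and the lowest 30% by mean log2 signal over all 12 arrays (geometric mean signal under 56.3) were left out, and 11106 were tested. Gene symbols came from the platform annotation, updated to RefSeq through gene identifiers: 12783 probe sets had 1 symbol, 312 several and 2771 none. The tested probe sets with 1 symbol (9346) stood for 8002 genes.

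Old and young epididymal arrays were compared unpaired with limma 3.58.1 (R 4.3.3, lmFit and eBayes with an intensity trend) on the 6 epididymal arrays, with Benjamini-Hochberg adjustment over all tested probe sets and a two-sided threshold of 0.05. The spread was not shared with perirenal arrays because those are tighter. The interaction needs all 12 arrays, so its spread is shared with the perirenal ones and can be too small for the epididymal part. Array controls were compared with exact permutation tests. The fits were tested on simulated data.

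The comparison, the 28 gene lists (1038 symbols, 838 on the array, 684 tested) and the tests were chosen with earlier results of these data known. Lists use the brightest probe set of each gene over the 6 epididymal arrays, and summed list signals use all list genes on the array. Named genes were the 12 smallest p in each direction that belong to 1 gene symbol, the 5 smallest interaction p in each direction, the 2 smallest p of each list and Pparg, Cebpa, Cebpb, Fabp4, Tnf, Il6, Ccl2, Mmp3, Ptgs2, Ddit3, Celf1, Dlk1, Cdkn1a, Cdkn2a, Cdkn2b, Igf1, Igfbp3, Col1a1 and Col3a1. Cell type markers were named from a fixed list. Other genes, such as Zfp423, Igfbp4, Ghr, Tnc and Postn, were named after their values were seen. Alternatives were the spread of all 12 arrays, no trend, array weights, quantile normalisation, other filters, an offset of 16, the log2 actin ratio as a covariate, a replicate block, each array left out, and, chosen after seeing the data, the 2 arrays with the highest actin ratio left out.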

Additional observations from a re-analysis of the deposited data

Results flagged for a closer look

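Among the 5 genes with the smallest interaction p in each direction, 5 had old and young arrays apart in opposite directions in the 2 depots, and the difference of the age effects (epididymal minus perirenal, log2) did not pass the limma interaction test after adjustment for any of them. The difference was 3.05 for Smoc1, 0.86 for Igf2r and 0.77 for Pja2, which were higher in old epididymal and lower in old perirenal cells. It was -0.98 for Rab5c and -0.71 for Rrp1, which were lower in old epididymal and higher in old perirenal cells. These genes were picked from 11106 tested probe sets by their small interaction p, which favours opposite directions.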

How the results depend on the processing

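The count of 0 probe sets past the threshold held in every fit run except with the spread of all 12 arrays (8 passed, 2 higher and 6 lower, with 927 at an unadjusted p under 0.05 and 2 list members) and without young array 1. Leaving out 1 array at a time gave 0 to 8 calls (0 to 2 higher, 0 to 6 lower, 0 to 7 list members) and 0 to 1 interaction calls. Arrays of the 2 ages with the same number come from different rats, and the correlation of their deviations was 0.28, 0.0372 and 0.21, so the number was not taken as a pairing. All 6 arrays nonetheless correlated best with their own number, and the replicate block gave 0 calls and 937 at an unadjusted p under 0.05. In the interaction, a random block took arrays of the same age and replicate number as 1 rat, which the titles do not state. With it 0 passed and 740 had an unadjusted p under 0.05. The cause of these changes was not tested.

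List medians moved as follows. With array weights they were -0.18 for adipogenic regulators, -0.0434 for NF-kB and receptors, -0.31 for the insulin-like growth factor axis and -0.0932 for patterning genes, which gave -0.0713 with the actin covariate. With the lowest 50% left out they were 0.0543 for lipid storage, -0.0411 for NF-kB and receptors, -0.0500 for proteases, -0.27 for the growth factor axis, -0.13 for patterning, 0.00427 for complement and 0.00144 for mesothelial markers. Without the 2 arrays with the highest actin ratio they were -0.0808 for adipogenic regulators, -0.0870 for proteases, -0.18 for the growth factor axis, 0.0728 for TGF-beta and BMP, -0.18 for growth factors, 0.11 for complement, -0.15 for mesothelial and -0.38 for macrophage markers. Esam (0.16), Mmp3 (0.12) and Epb41l3 (-0.0854) then reversed.

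With 1 array left out, medians were -0.24 to -0.0574 for adipogenic regulators, -0.12 to 0.0815 for their inhibitors, -0.18 to -0.000859 for NF-kB and receptors, -0.0940 to 0.0700 for proteases, -0.15 to -0.0536 for cell cycle arrest, -0.52 to -0.19 for the growth factor axis, 0.00693 to 0.0851 for TGF-beta and BMP and -0.11 to 0.0413 for patterning. They were 0.0202 to 0.0832 for heat shock, -0.12 to -0.0318 for oxidative stress, -0.17 to 0.0462 for complement, -0.42 to -0.19 for mesothelial, -0.0662 to 0.30 for neural and -0.24 to 0.0824 for muscle markers. Differences that reversed spanned -0.0349 to 0.26 for Epb41l3, -0.83 to 0.0699 for Clu, -0.38 to 0.0240 for Pparg, -1.80 to 0.12 for Mmp3 and -0.55 to 0.20 for Ddit3. Probe sets dim on all epididymal arrays, such as those of Cdkn2b, carry standard errors near 1 log2 unit, so little can be read from them.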

Other observations

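Probe sets with no gene symbol were also among those with the smallest p in epididymal cells. The one with the smallest p had 624, 570.0 and 858 in young and 260, 280.0 and 264 in old cells (-1.33 ± 0.20, adjusted p = 0.249 in limma), and its log2 difference stayed between -1.45 and -1.15 when 1 array was left out. In perirenal cells it differed by -0.05 ± 0.29. A second had 889, 1144 and 1014 in young and 557, 303 and 355 in old cells (-1.37 ± 0.23) and passed with the spread of all 12 arrays (adjusted p = 0.0379). Another passed with that spread, but its difference was -2.49 ± 0.73 on the 6 epididymal arrays (adjusted p = 0.701 in limma). Sharing the spread cut its standard error to 0.34. It had 99.2, 73.4 and 44.6 in young and 15.4, 10.1 and 11.7 in old cells. It passed the low-signal filter, which is taken over all 12 arrays, only through perirenal signals of 150 to 214. The 4 genes in which all probe sets were lower on every old array were Igf1, Dpt, Ctsc (a lysosomal protease) and Sh2b1 (an adaptor of insulin and leptin receptors). The 10 in which all were higher were Stmn2, Cd55, Igf2r, Bzw1, Eml1, Mtpn, Ptpn11, Purb, Synpo and Ywhab. The genes that these lists add were named after their values were seen.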
